A study of Mus musculus with 2 samples.

Results

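The genes described here are the secreted Wnt proteins, their Frizzled receptors, the secreted Frizzled-related proteins (Sfrp), the Dickkopf antagonists (Dkk) and the R-spondins (Rspo). They were chosen by symbol alone: every gene named Wnt, Fzd, Sfrp, Dkk or Rspo followed by a digit, with a protein-coding transcript in the annotation. The rule found 41 genes of the 55536 named genes in the tables: 19 Wnt, 10 Fzd, 4 Sfrp, 4 Dkk and 4 Rspo genes. The data are 2 RNA libraries of the gastrocnemius, the superficial calf muscle, of female B6CASTF1/J mice at 10 days of age. B6CASTF1/J is the first-generation hybrid of the inbred strains C57BL/6J and CAST/EiJ; the labels name no further allele, agent or treatment. Both libraries belong to this single group and come from separate biosamples, and the labels do not say whether each came from 1 animal. The RNA was total RNA after ribosomal RNA reduction, prepared as stranded libraries with added spike-in RNAs.

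Wnt proteins are lipid-modified ligands that bind Frizzled receptors together with the co-receptors Lrp5 and Lrp6, which stabilises beta-catenin, or with Ror and Ryk receptors, which signal without it. Sfrp proteins bind Wnts outside the cell, Dkk proteins such as Dkk1 bind Lrp5 and Lrp6, and R-spondins bind Lgr receptors and slow the removal of Frizzled from the cell surface. In skeletal muscle the pathway is known for its roles in satellite cells, the muscle stem cells, in fibre growth and at the nerve-muscle junction. Because whole muscle was used, fewer cells of a type and less RNA per cell cannot be told apart in any value given here.

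The libraries held 35925081 expected counts in replicate 1 and 39969380 in replicate 2, of which spike-ins took 0.720% and 0.798%. All 10 muscle fibre markers, such as Acta1 and Ckm, were detected, and together they summed to 86388 TPM in replicate 1 and 101688 in replicate 2. TPM is a level per transcript length that sums to the same total in each library. Markers of fibroblasts, tendon, satellite cells, endothelium, pericytes and smooth muscle, Schwann cells and macrophages were all detected too. Replicate 1 held more of several marker lists: 16 bone and cartilage markers summed to 445 TPM there and 29.2 in replicate 2, and 8 marrow granulocyte markers to 57.6 and 0.93. The bone and cartilage markers Ibsp, Bglap, Col10a1 and Matn1 were at 0 in replicate 2, Matn1 with only 4 counts in replicate 1. The granulocyte markers Ngp, Camp and Elane were at 0 in replicate 2 too. The 6 adipocyte markers summed to 160.5 and 124 TPM. Of the 6 neuron markers, Uchl1 had 209 and 192 counts and Stmn2 140 and 89. Snap25 had 36 and 1 counts, Rbfox3 22 and 2, Nefl 17 and 0 and Chat 0 in both libraries. Results for members that differ between the libraries are therefore given for each library, with these markers beside them.

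Start-site sequences are shown first for the members on which the results turn: the top pair of Frizzled genes, Fzd7 and Fzd4, the ligands Wnt11 and Wnt5b, which are annotated with several starts, and Dkk1, the member that differed most between the libraries. They were picked after the values were seen. Each window runs from 250 bases before to 50 bases after a RefSeq start on the GRCm38.p6 assembly, the same build as mm10, and is written 5′ to 3′ on the gene's strand with every CG dinucleotide in capitals. No transcript measured here begins exactly at the RefSeq start used for Fzd7, Fzd4 or Dkk1. Fzd7-201 begins at 59482424, past the end of its window. Fzd4-201 begins at 89404355 and Dkk1-201 at 30549665, inside their windows.
Fzd7, chr1:59481897-59482196, plus strand: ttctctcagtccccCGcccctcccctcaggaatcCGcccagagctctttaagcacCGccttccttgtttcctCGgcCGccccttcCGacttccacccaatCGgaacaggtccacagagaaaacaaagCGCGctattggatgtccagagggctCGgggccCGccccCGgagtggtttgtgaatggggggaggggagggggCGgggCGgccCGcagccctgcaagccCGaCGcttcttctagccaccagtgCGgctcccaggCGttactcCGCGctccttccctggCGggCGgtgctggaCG
Fzd4, chr7:89404116-89404415, plus strand: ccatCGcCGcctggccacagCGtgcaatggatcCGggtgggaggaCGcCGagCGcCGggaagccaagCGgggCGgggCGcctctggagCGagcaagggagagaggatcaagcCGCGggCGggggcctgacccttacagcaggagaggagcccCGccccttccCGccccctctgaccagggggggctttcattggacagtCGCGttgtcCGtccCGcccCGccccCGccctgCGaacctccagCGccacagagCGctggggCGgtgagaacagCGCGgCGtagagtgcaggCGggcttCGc
Wnt11 first start, chr7:98834862-98835161, plus strand: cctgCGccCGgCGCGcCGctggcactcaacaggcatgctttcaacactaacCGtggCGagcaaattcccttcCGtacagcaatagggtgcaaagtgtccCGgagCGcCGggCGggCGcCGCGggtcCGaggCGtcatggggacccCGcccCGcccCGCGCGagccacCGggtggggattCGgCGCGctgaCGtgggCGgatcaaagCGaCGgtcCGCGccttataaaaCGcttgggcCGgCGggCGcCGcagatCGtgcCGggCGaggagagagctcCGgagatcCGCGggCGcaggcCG
Wnt11 second start, chr7:98838595-98838894, plus strand: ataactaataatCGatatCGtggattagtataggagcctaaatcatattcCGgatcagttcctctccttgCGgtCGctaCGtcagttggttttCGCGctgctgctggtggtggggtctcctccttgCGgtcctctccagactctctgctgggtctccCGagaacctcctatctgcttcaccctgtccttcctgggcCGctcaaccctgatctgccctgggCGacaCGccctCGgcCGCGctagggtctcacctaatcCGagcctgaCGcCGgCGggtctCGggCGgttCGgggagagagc
Wnt5b first start, chr6:119544298-119544597, minus strand: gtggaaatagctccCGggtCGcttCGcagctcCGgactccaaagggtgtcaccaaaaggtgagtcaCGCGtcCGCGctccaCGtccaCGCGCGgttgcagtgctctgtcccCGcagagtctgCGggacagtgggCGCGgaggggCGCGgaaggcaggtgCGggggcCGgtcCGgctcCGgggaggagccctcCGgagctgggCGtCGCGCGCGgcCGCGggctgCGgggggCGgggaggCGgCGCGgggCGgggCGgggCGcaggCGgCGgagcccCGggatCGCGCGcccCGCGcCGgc
Wnt5b second start, chr6:119467162-119467461, minus strand: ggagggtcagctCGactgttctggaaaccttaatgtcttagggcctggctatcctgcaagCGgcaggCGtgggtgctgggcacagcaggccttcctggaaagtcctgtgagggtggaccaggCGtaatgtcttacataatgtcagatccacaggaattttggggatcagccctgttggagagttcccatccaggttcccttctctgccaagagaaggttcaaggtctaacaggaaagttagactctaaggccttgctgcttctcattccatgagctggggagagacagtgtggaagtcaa
Wnt5b last start, chr6:119449337-119449636, minus strand: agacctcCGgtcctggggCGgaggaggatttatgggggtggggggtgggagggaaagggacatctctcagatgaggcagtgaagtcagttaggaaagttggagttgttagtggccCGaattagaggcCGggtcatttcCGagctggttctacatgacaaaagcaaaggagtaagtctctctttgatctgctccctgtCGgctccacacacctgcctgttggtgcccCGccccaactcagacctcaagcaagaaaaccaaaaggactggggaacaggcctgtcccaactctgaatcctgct
Dkk1, chr19:30549447-30549746, minus strand: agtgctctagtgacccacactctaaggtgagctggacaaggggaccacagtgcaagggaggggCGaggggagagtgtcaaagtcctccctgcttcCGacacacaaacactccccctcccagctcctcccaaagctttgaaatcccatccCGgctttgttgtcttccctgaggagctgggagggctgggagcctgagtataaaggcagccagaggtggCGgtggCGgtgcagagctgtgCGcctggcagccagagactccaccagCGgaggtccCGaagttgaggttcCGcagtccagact
The Fzd7 and Fzd4 windows hold 24 and 32 CG dinucleotides, against a median of 7 and quartiles of 3 and 20 over 32851 RefSeq promoters of the same length. The first start of Wnt11 holds 45 and its second 23. The first start of Wnt5b holds 47, while its other 2 starts hold 4 and 7, and the Dkk1 window holds 9. The motif TATAAA, the TATA box, searched on both strands (reverse TTTATA), is in the Dkk1 window and at the first start of Wnt11 and in 13.6% of all promoters. The motif GGGCGG (reverse CCGCCC), the GC box, is in every printed window except those of Dkk1 and the second start of Wnt5b, and in 35.7% of all promoters. CTTTGAT (reverse ATCAAAG), the core bound by TCF and LEF factors, is at the first start of Wnt11 and the last of Wnt5b, and in 3.73% of all promoters. The table held windows for 27 of the 41 members, or 65.9%, so a comparison of promoter features over the whole family is void and was not made.

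Of the 41 members, 21 were detected, meaning TPM of at least 1 in both libraries. That is 51.2%, against 52.5% of the 21938 nuclear protein-coding genes, so the share is close to the background; of all named genes 22.6% were detected. The families differed in this count: 9 of 10 Fzd and 4 of 4 Sfrp genes were detected, but 5 of 19 Wnt, 2 of 4 Dkk and 1 of 4 Rspo genes. The median TPM was 4.92 over the detected members and 9.35 over the detected protein-coding genes. Summed over the 41 genes, TPM was 142 in replicate 1 and 113 in replicate 2, a mean of 128 ± 20.7 (SD, n = 2) or 0.0128% of all TPM. Frizzled receptors held 48.3% ± 3.84 of that sum (SD, n = 2), Wnts 22.3% ± 0.327, Sfrps 19.4% ± 3.15, Dkks 8.16% ± 0.446 and R-spondins 1.78% ± 0.0839. The top 10 genes held 68.6% ± 0.155.

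**Figure D1:**
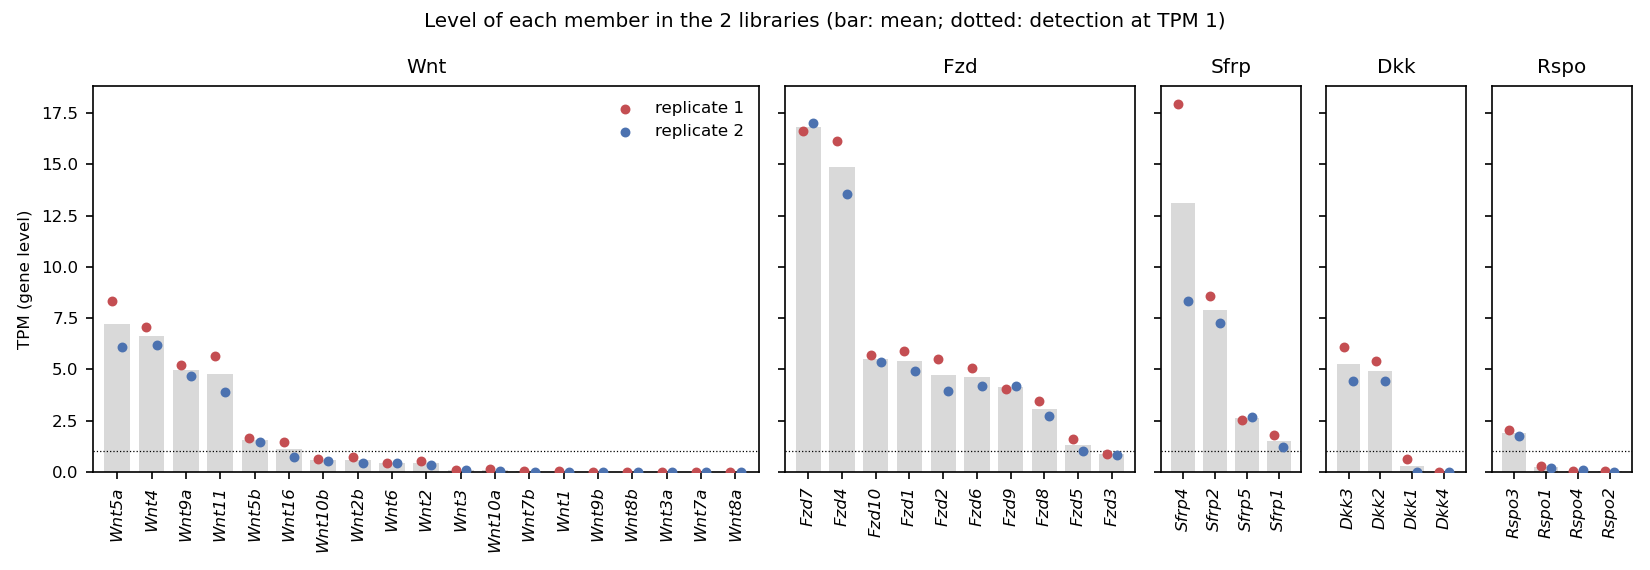
Gene-level TPM of each of the 41 members, by family and in order of the mean, with 1 point per library and a bar at the mean of the 2. Fzd7, Fzd4 and Sfrp4 stand highest, the points of Sfrp4 lie farthest apart at 17.93 and 8.32, and 14 of 19 Wnt genes lie under TPM 1 in at least 1 library.

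Among the ligands, Wnt5a led the order by mean gene-level TPM, with 8.34 TPM in replicate 1 and 6.08 in replicate 2. This level includes noncoding transcripts, and coding ones held 63.4% of it in replicate 1 and 75.9% in replicate 2. Wnt5a is the best studied ligand of the beta-catenin-independent branch. Wnt4, a ligand known in kidney and gonad development, stood at 7.05 and 6.17 TPM, all of it from a single coding transcript. The ranges of Wnt5a and Wnt4 overlapped, and their order turned between libraries: Wnt5a was the higher in replicate 1 and Wnt4 in replicate 2. The order did not turn in the kallisto-format tables, a second deposited set of transcript values. There Wnt5a was the higher in both libraries, at 11.4 and 9.15 TPM against 9.69 and 8.00 for Wnt4. Wnt9a, known in joint formation, measured 5.22 and 4.70 TPM, and Wnt11, a ligand of cell movement and polarity, 5.65 and 3.90. Wnt4 lay above Wnt9a in both libraries with no overlap, while Wnt9a and Wnt11 overlapped. Wnt5b, the close relative of Wnt5a, was the lowest detected ligand at 1.65 and 1.48 TPM, from 105 and 106 counts. Within the Wnt sum, Wnt5a held 25.2% ± 1.15 (SD, n = 2), Wnt4 23.3% ± 1.94, Wnt9a 17.5% ± 1.81 and Wnt11 16.6% ± 1.40.

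The other 14 Wnt genes did not pass TPM 1 in both libraries. Wnt16, a ligand known in bone, came closest, with 1.48 TPM in replicate 1 and 0.73 in replicate 2, and lay on both sides of the limit. Wnt2b, Wnt10b, Wnt2 and Wnt6 followed, between 0.33 and 0.74 TPM, with 22 to 67 counts in a library. Wnt3 and Wnt10a were at 0.05 to 0.13 TPM, from 3 to 10 counts. Wnt7b, Wnt1, Wnt9b and Wnt8b had between 0 and 6 counts. Wnt3a, Wnt7a and Wnt8a had 0 counts in each library; the level that a count of 0 allows is up to 0.0835 CPM, counts scaled to the library total, in replicate 1 and 0.0751 in replicate 2, for counting error only. Wnt1 and Wnt3a, in these groups near or at 0, are the ligands most used to switch on beta-catenin signalling in culture.

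Of the Wnt genes, 8 sit in 4 neighbouring pairs, with no other coding gene between the members of a pair. On chromosome 11 (mm10), Wnt3a at 59248033 to 59290752 lies 16.2 kb from Wnt9a at 59306928 to 59333552. Wnt3a had 0 counts in both libraries, while Wnt9a had 474 and 485. The other 3 pairs held no detected gene. Wnt10b lies 11.7 kb from Wnt1 on chromosome 15, and it had 44 and 36 counts against 2 and 1 for Wnt1. Wnt6 lies 6.19 kb from Wnt10a on chromosome 1, with 22 and 29 counts against 3 and 4. Wnt9b and Wnt3, 24.3 kb apart on chromosome 11, had 1 and 2 counts and 10 and 9 counts.

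Among the receptors, 9 of 10 Frizzled genes were detected, the largest number of any of the 5 families. Fzd7, a Wnt receptor known on satellite cells, measured 16.63 TPM in replicate 1 and 17.00 in replicate 2, a mean of 16.8 ± 0.262 (SD, n = 2). Fzd4, the receptor for the retinal ligand norrin as well as for Wnts, measured 16.16 and 13.56 TPM. Fzd7 lay above Fzd4 in both libraries, by a narrow gap: the lower value of Fzd7 was 16.63 and the higher value of Fzd4 16.16. Fzd4 drew the most counts of any member, 3018 and 2880, and its annotated transcript, of 6720 bases, is longer than the 4532 bases of Fzd7. Fzd7 held 27.5% ± 2.72 and Fzd4 24.2% ± 0.982 of the Frizzled TPM (SD, n = 2).

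Below this pair lay a gap and then a group of 5 receptors whose neighbours in order overlapped. Fzd10 measured 5.73 and 5.34 TPM, and Fzd1 5.88 and 4.91. Fzd2 measured 5.53 and 3.96 TPM, and Fzd6, a receptor of hair and planar polarity, 5.06 and 4.19. Fzd9, the last of the group, stood at 4.06 and 4.21 TPM. All 5 lay under the lower value of Fzd4. Fzd9 was above Fzd8, at 3.45 and 2.74 TPM, and Fzd8 above Fzd5, at 1.61 and 1.01, each with no overlap. Fzd3, a receptor known in axon guidance, was the Frizzled gene not detected, at 0.89 and 0.85 TPM from 316 and 239 counts. It lay close to the limit, and in the kallisto-format tables it passed TPM 1 in both libraries, at 1.23 and 1.58.

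Sfrp4 was the highest of the 4 Sfrp genes by mean and the least even member between libraries among the detected genes. It had 17.93 TPM in replicate 1 and 8.32 in replicate 2, so that it led all members in replicate 1 but lay behind Fzd7 and Fzd4 in replicate 2. Sfrp2, known in fibroblasts, measured 8.59 and 7.25 TPM, and its range overlapped that of Sfrp4. Sfrp5 stood at 2.54 and 2.68 TPM and Sfrp1 at 1.78 and 1.20, in this order with no overlap. Sfrp4 held 58.1% of the Sfrp TPM in replicate 1 and 42.8% in replicate 2, and Sfrp2 27.9% and 37.3%.

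The Dickkopf family was carried by Dkk3 and Dkk2. Dkk3, a divergent member that is not a typical Lrp antagonist, measured 6.08 TPM in replicate 1 and 4.44 in replicate 2. Dkk2 measured 5.39 and 4.44 TPM, so the pair overlapped and was equal in replicate 2. Dkk1, the classical Lrp6 antagonist, had 40 counts and 0.61 TPM in replicate 1 and 0 counts in replicate 2. Dkk4 had 0 expected counts in both libraries, but the kallisto-format tables gave it 8 and 4 estimated counts.

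Of the R-spondins, Rspo3, known in vessels and in intestinal and bone tissue, was the one detected, at 2.06 TPM in replicate 1 and 1.76 in replicate 2. It held 84.3% ± 0.377 of the R-spondin TPM (SD, n = 2). Rspo1 measured 0.29 and 0.20 TPM from 8 and 11 counts. Rspo2 and Rspo4 had between 2 and 7 counts in each library and at most 0.10 TPM. Rspo3 lay above Rspo1, and Rspo1 above Rspo4, with no overlap.

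Of the 21 detected members, 12 have a single annotated transcript, and 6 have at least 2 transcripts with 10% or more of the gene in either library and are described here. Of the rest, Sfrp4 differed between the kinds of table: Sfrp4-204 held 0% in both libraries in the RSEM-format tables but 25.8% and 25.1% in the kallisto-format tables. Transcripts were grouped by start sites within 500 bases of each other, a grouping made after the values were seen, and the share of the gene's TPM was summed over each group. The start of Wnt5a on chromosome 14 at 28504750, used by transcript Wnt5a-201, held 43.97% in replicate 1 and 63.54% in replicate 2. The starts 6.64 kb downstream, of Wnt5a-203, Wnt5a-202 and Wnt5a-205, held 38.9% and 32.3%. Of these transcripts Wnt5a-202 is annotated as coding and the others as noncoding, and Wnt5a-203 held 16.7% and 16.6%. In the kallisto-format tables the downstream starts were the larger group in both libraries, at 58.8% and 52.0% against 41.2% and 48.0% for the first. Both tables thus gave Wnt5a RNA to both starts, and they ordered the starts differently.

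The printed Wnt11 starts lie 3.73 kb apart. The first, at 98835112, held 32.7% of Wnt11 TPM in replicate 1 and 47.8% in replicate 2. The second, at 98838845, held 54.8% and 52.2% and was the larger in both libraries, narrowly so in replicate 2. By expected counts the first and second starts were near equal in replicate 2, at 100.3 and 99.7. The second start was the larger in the kallisto-format tables too, at 54.4% and 72.01% against 32.6% and 24.8%. Which transcript carried the second start varied: Wnt11-205, a coding form, held 54.8% of the gene in replicate 1 and 30.4% in replicate 2. Wnt11-204, annotated as a target of nonsense-mediated decay, held 0% and 21.8%. Coding transcripts held 71.6% of Wnt11 TPM in replicate 1 and 41.0% in replicate 2, on 259 and 200 counts for the whole gene.

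For Wnt5b, the first start carried 100% of the TPM in both libraries, from the minus-strand starts 119544347 and 119544318, which lie 29 bases apart. This is the window with 47 CG dinucleotides. The starts 77.1 kb and 94.96 kb downstream, with 4 and 7, held 0%. The kallisto-format table of replicate 1 gave them 3.97% and 18.6%, and that of replicate 2 gave both 0%. Between the transcripts of the first start the division was not stable: Wnt5b-203 held 38.2% in replicate 1 and 100% in replicate 2, and Wnt5b-204 the rest. Fbxl14, a gene on the opposite strand within Wnt5b, was at 6.24 and 5.66 TPM and shares 0 exon bases with it.

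In the other 3 genes, Rspo3-201 held 79.1% and 71.5% of Rspo3 TPM, and Rspo3-202, which starts 31.1 kb downstream, held the rest. Fzd6 drew 87.7% and 100% from starts within 299 bases, but its coding transcripts held 57.3% and 68.6% of its TPM. Fzd5-201 held 88.0% and 87.3% of Fzd5 TPM, and its annotated starts lie within 2 bases of each other.

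**Figure D2:**
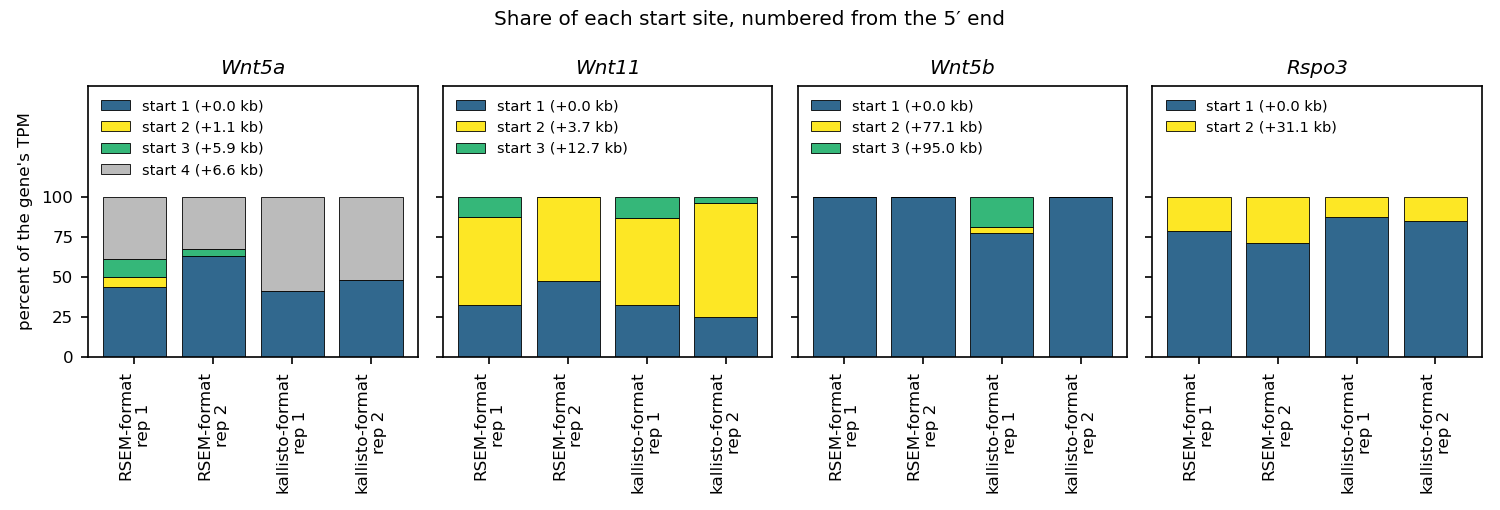
Percent of a gene's TPM given to each group of start sites of Wnt5a, Wnt11, Wnt5b and Rspo3, in the RSEM-format and kallisto-format tables of each library, with distances in kb from the first start. The second Wnt11 start is the larger in all 4 bars, but narrowly in RSEM-format replicate 2 (52.2% against 47.8%). The larger Wnt5a start differs between the kinds of table.

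The study has 1 group, so the comparison between its libraries is a description of replicate spread, with no test of a condition. Ratios were taken as replicate 2 over replicate 1 on counts scaled by the trimmed mean of M values (TMM), where a gene's count averaged 20 or more over the libraries. Of the 41 members, 28 passed this filter. Of these, 15 were lower and 13 higher in replicate 2, with a median log2 ratio of -0.03, against 0.04 over the 15204 genes that passed, of which 44.2% were lower. The median size of the log2 ratio was 0.21 over the members and 0.21 over all genes. The scaling sets this balance: with library totals 24 of 28 were lower in replicate 2, and with spike-in totals 27 of 28. Those scalings moved the median log2 ratio of the members to -0.27 and -0.42, and that of all genes to -0.20 and -0.35. The share of all genes lower in replicate 2 was not taken under them. On the TPM scale, 31 of the 41 members were higher in replicate 1, 5 in replicate 2 and 5 equal. Of 72 other pathway genes described below, 64 were higher in replicate 1 and 7 in replicate 2. The share over all genes was not taken on this scale, so the count is not read as a trait of the members. The muscle fibre markers took more of the total in replicate 2 (86388 and 101688 TPM), and their part in the TPM differences was not tested.

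Dkk1 was the single member past 2-fold by this measure, with 40 counts in replicate 1 and 0 in replicate 2. Its 40 counts were 12.5-fold higher than a floor of 3 counts set for replicate 2, after scaling. The upper end of its 95% counting interval was a log2 ratio of -3.28. The background is 4.55% of all genes past 2-fold and 4.05% past it with the higher value in replicate 1. Its mean count of 20 sits on the filter, so a stricter filter leaves it out. Sfrp4 had 875 counts in replicate 1 and 449 in replicate 2, a log2 ratio of -0.87 with a 95% counting interval of -1.04 to -0.71. Wnt16 had 65 and 36 counts, a log2 ratio of -0.75 with an interval of -1.39 to -0.15. These 3 genes were past 1.5-fold, and each was higher in replicate 1; 11.6% of all genes were past 1.5-fold and 8.90% with the higher value in replicate 1. With spike-in totals all 3 were past 2-fold. That scaling put the median log2 ratio over all genes at -0.35, and the share of all genes past 2-fold under it was not taken.

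Beside these genes stand the marker lists. Of 15 bone and cartilage markers tested, 14 were lower in replicate 2 and 12 of them past 2-fold, with a median log2 ratio of -4.59 and sums of 445 and 29.2 TPM. The 3 not past 2-fold were the cartilage genes Col2a1, at -0.05, Acan, at -0.26, and Matn3, at 0.80. Col10a1, also a cartilage gene, was past it at -8.44, on 179 and 0 counts. All 6 marrow granulocyte markers tested were past 2-fold in the same direction. Of 6 adipocyte markers, 3 were past 2-fold lower in replicate 2, and Col1a1 among the fibroblast markers had a log2 ratio of -0.63. Of 12 fibroblast markers, 8 were lower and 4 higher in replicate 2, with a median of -0.03. Endothelial markers had a median of 0.07, satellite cell markers -0.01 and tendon markers 0.06. The part of bone, marrow or adipose material in the values of Dkk1, Sfrp4 and Wnt16 was not tested.

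The other 25 members lay within 1.5-fold. The highest ratio was that of Wnt6, at 0.48 on 22 and 29 counts, with a counting interval of -0.36 to 1.36. Fzd7 had 2079 and 2418 counts and a log2 ratio of 0.31 (95% counting interval 0.22 to 0.39). Fzd4 had a ratio of 0.02 (-0.05 to 0.10), Wnt4 of 0.08 (-0.06 to 0.23) and Wnt5a of 0.15 (0.03 to 0.28). Over all 28 members, counting intervals lay below 0 for 7 (Dkk1, Sfrp4 and Wnt16 among them) and above 0 for 5. The share over all genes was not taken for these intervals, so the counts are not read as a trait of the members. The intervals cover counting error only, and reads are not shown to be independent molecules.

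**Figure D3:**
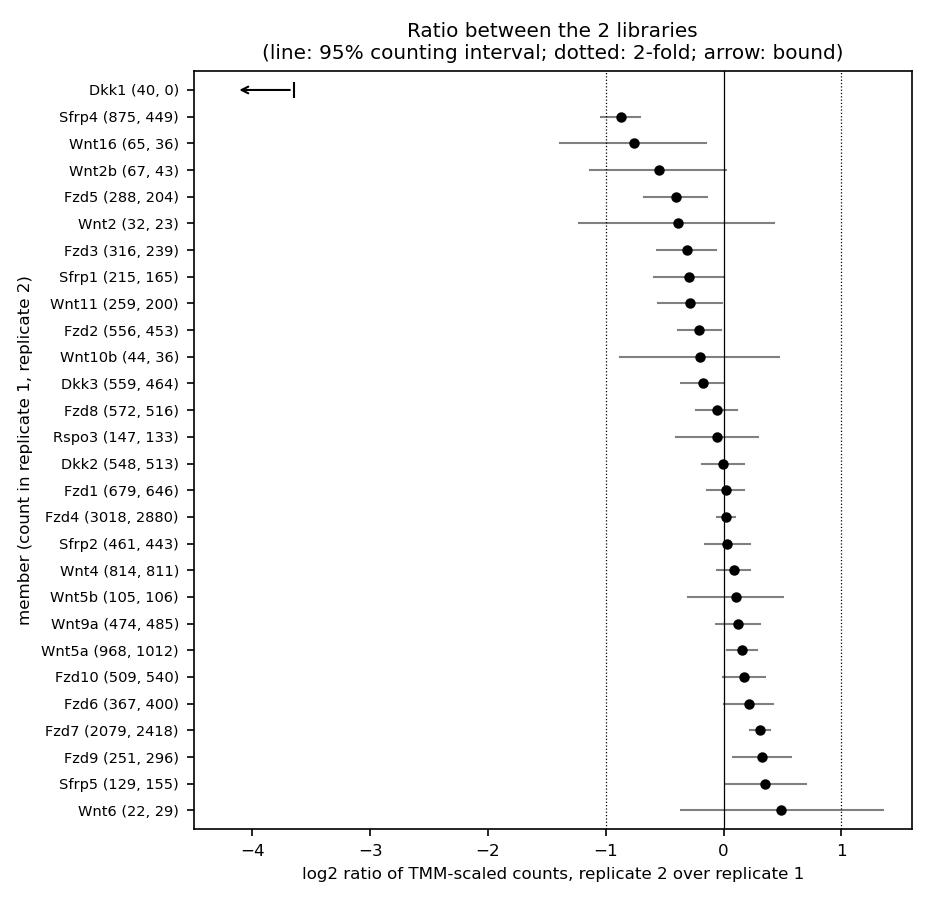
TMM-scaled log2 ratio of replicate 2 over replicate 1 for the 28 members with a mean count of at least 20, each with its 95% counting interval and its counts; dotted lines mark 2-fold. Dkk1 is drawn as a bound, Sfrp4 and Wnt16 are next at -0.87 and -0.75, and the other 25 lie within 1.5-fold.

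Of 72 other pathway genes, on 8 lists of pathway parts, 58 reached TPM 1 in both libraries, beside the 52.5% of nuclear protein-coding genes that did. By list the count ran from 2 of 5 to every gene. All 5 genes of Wnt secretion and release were detected. The glypicans Gpc4 and Gpc3, which carry Wnts at the cell surface, measured 58.18 and 49.56 TPM and 52.44 and 35.49 TPM. Wls, the carrier that takes Wnts to the surface, measured 21.02 and 17.19. Porcn, the enzyme that adds the lipid, was the lowest of the list at 2.28 and 2.56. All 9 co-receptors and alternative receptors were detected, led by Ryk at 26.99 and 24.25 TPM, Lrp6 at 24.06 and 19.26 and Lrp5 at 19.54 and 16.63. Each of these 3 was above every Frizzled gene in the same library, except Lrp5 in replicate 2, where Fzd7 measured 17.00.

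Of the 5 R-spondin receptors and Frizzled-removing ligases, 2 were detected. Lgr4 measured 11.22 and 8.37 TPM, and the ligase Znrf3 7.24 and 5.59. Lgr6 measured 0.70 and 0.65 TPM, Lgr5 0.35 and 0.20, and the ligase Rnf43 0.03 and 0.05. Of 11 other extracellular antagonists and Dickkopf receptors 6 were detected. Kremen1, a receptor for Dickkopfs, measured 32.94 and 27.06 TPM. Frzb, also known as secreted Frizzled-related protein 3 but outside the symbol rule, measured 22.85 and 28.36 TPM, above every one of the 41 members in both libraries. Wif1, a secreted Wnt-binding protein, measured 7.53 and 6.05 TPM. Sost, the antagonist made by bone osteocytes, had 10 counts in replicate 1 and 0 in replicate 2, as bone and cartilage markers were lower there (445 and 29.2 TPM), and the part of bone in its counts was not tested.

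Inside the cell, 11 of 12 genes of the destruction complex, dishevelled and beta-catenin were detected. Ctnnb1, which encodes beta-catenin, measured 135.55 and 130.51 TPM, Csnk1a1 118.47 and 110.82, and Dvl1 42.68 and 43.43. Among nuclear effectors 11 of 13 were detected, led by the co-activator Bcl9l at 34.35 and 30.44 TPM, the inhibitor Ctnnbip1 at 27.18 and 30.89 and the co-repressor Tle1 at 12.06 and 9.86. Of the 4 TCF and LEF factors, Tcf7l2 and Tcf7l1 were detected at 12.09 and 8.11 and at 7.25 and 5.64 TPM. Tcf7 measured 2.02 and 0.81 TPM and Lef1 0.50 and 0.15. Of 6 feedback targets, genes that the pathway switches on in many tissues, 5 were detected: Axin2 led at 8.23 and 6.33 TPM, followed by Tnfrsf19 at 5.59 and 4.55 and Nkd1 at 3.65 and 2.42. Sp5 had 0 counts in both libraries. Planar polarity genes were detected in 9 of 11 cases, led by Daam1 at 10.47 and 8.97, Scrib at 9.47 and 9.02 and Daam2 at 5.93 and 4.88.

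Between the libraries, 64 of the 72 genes could be compared, with 37 lower and 27 higher in replicate 2 and a median log2 ratio of -0.06. Over all 15204 genes compared, 44.2% were lower and the median was 0.04. Past 2-fold were Lgr5, with 46 and 14 counts, Lef1, with 44 and 14, Tcf7, with 116 and 54, and Tle2, with 178 and 82, all higher in replicate 1. Tcf7, at -1.01 on the log2 scale, was at -0.91 with kallisto-format counts and so inside 2-fold there. The bone and cartilage markers were higher in replicate 1 too, at 445 and 29.2 TPM in sum, and their part in these 4 genes was not tested. That is 4 of 64, beside the 4.05% of all genes past 2-fold with the higher value in replicate 1. With spike-in totals, under which the median log2 ratio over all genes was -0.35, 63 of the 64 were lower in replicate 2. The share of all genes lower under that scaling was not taken.

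**Figure D4:**
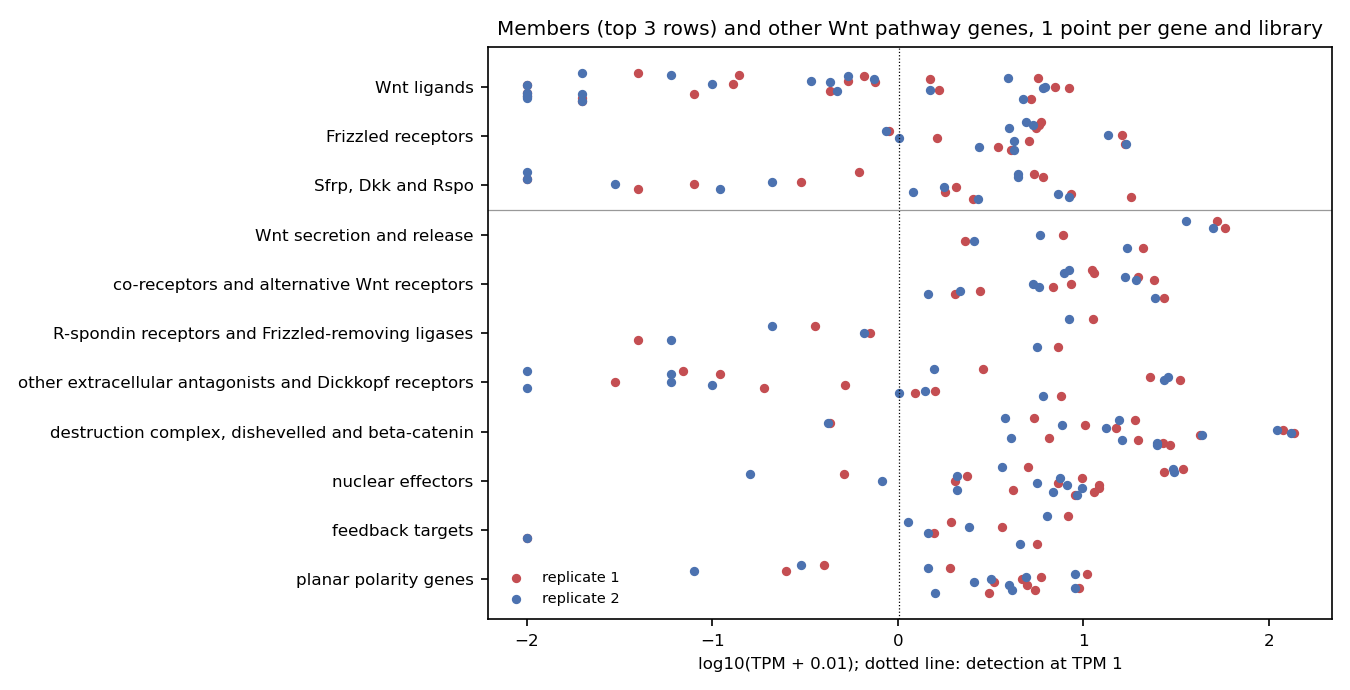
TPM on a log10 scale for the members in the upper 3 groups and for the 72 other pathway genes by list, with 1 point per gene and library and a dotted line at TPM 1. The 72 genes on the 8 lists reach 135.55 TPM (Ctnnb1), while no member passes 17.93.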

How the data were processed

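Total RNA from 2 gastrocnemius samples, 1 group with biological replicates 1 and 2, was sequenced by the authors with ribosomal RNA reduced, stranded preparation and ERCC spike-ins, per the labels. The deposited gene and transcript tables have RSEM-format columns, and a second set of transcript tables has kallisto-format columns; the sources used here do not name the tools or versions. The build was mm10 with GENCODE M21, per text files deposited beside the tables. mm10 is a C57BL/6J genome; how the mapping of CAST/EiJ reads bears on member levels was not tested. Deposited expected counts and estimated counts, so named in the file headers, divide reads that match several transcripts by a model. They were rounded to whole numbers for ratios. Deposited TPM values, including the posterior mean TPM, are per effective length, with each library summing to the same total. Transcript shares are the percent column of the transcript tables as deposited.

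Each gene table has 81881 rows, of which 55536 are Ensembl genes and 97 spike-ins; rows that name no gene (26248) held 1.38e-05% and 5.00e-06% of counts and were left out. Depth was 35925081 and 39969380 expected counts, and 35532610 and 39103802 estimated counts in the kallisto-format tables. Log2 ratios used edgeR 4.0.16 (TMM, prior count 0.5) in R 4.3.3 over all named genes, and DESeq2 1.42.0 size factors as an alternative. The ratio script was tested on simulated data. Exact Poisson and binomial 95% intervals and the 3-count limit cover counting error only. The other steps used Python 3.11.15, pandas 2.3.3, numpy 2.4.6, scipy 1.17.1 and matplotlib 3.10.9. Promoters are from RefSeq.

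The members and lists were chosen with earlier results of these data known. All members were named or counted; detected ones were given per library, transcript forms were described where at least 2 held 10% or more in either library, and the leading 3 genes of each pathway list, the genes past 2-fold and those at 0 in both libraries were named. Other list genes (Porcn, Lgr5, Lgr6, Rnf43, Sost and the TCF and LEF factors) and the marker genes were named after their values were seen. With 1 group there is no test and no p-value. SDs are over 2 libraries, whose spread may be partly technical.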

Additional observations from a re-analysis of the deposited data

How the results depend on the processing

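No paired analysis was possible because the study has 1 group of 2 libraries. The count of detected members was 24 at TPM 0.5, 17 at TPM 2, 27 by a count of 10, 22 in the kallisto-format tables, 22 by posterior mean TPM and 24 rescaled over protein-coding genes, against 21; with replicate 1 or replicate 2 left out it was 21 or 22. The count of members past 2-fold, 1 by TMM, was 2 with library totals (Sfrp4 and Dkk1), 3 with spike-in totals, 3 with a 1.5-fold limit, 5 with no filter on counts (Dkk1, Rspo4, Rspo2, Wnt7b and Wnt8b, the last 4 on 7 counts or fewer) and 0 at a mean count of 100, which leaves Dkk1 out. The share of all genes past 2-fold was taken with TMM only. The median log2 ratio of the members was -0.27 with library totals and -0.42 with spike-in totals, by construction of the scaling. Over all genes that median was -0.20 and -0.35. Shares by expected counts, which are not per length, were 34.9% for Wnt5a, 48.1% for Dkk3 and 88.6% for Rspo3. In the kallisto-format tables the share was 49.2% for Dkk3 and 83.3% for Rspo3, and by posterior mean TPM it was 78.5% for Rspo3; the cause was not tested. The transcript shares that moved in the kallisto-format tables were 19.5% for Fzd6-201, 86.5% for Rspo3-201, 1.38e-05% for Wnt5b-203 and 97.5% for Fzd5-201, and the cause was not tested. With 1 library left out, family shares ran from 24.3% to 26.0% for Wnt5a, 25.6% to 29.4% for Fzd7, 42.8% to 58.1% for Sfrp4, 50% to 50.3% for Dkk3 and 84.1% to 84.6% for Rspo3. Transcript shares ran from 43.97% to 63.54% for Wnt5a-201, 30.4% to 54.8% for Wnt11-205, 28.7% to 52.3% for Fzd6-201, 71.5% to 79.1% for Rspo3-201, 38.2% to 100% for Wnt5b-203 and 87.3% to 88.0% for Fzd5-201, and the pathway genes detected from 58 to 59. Without replicate 1 the TPM of Sfrp4 was 8.32 and without replicate 2 17.93, against a mean of 13.1. Ratios between the libraries cannot be had with 1 library left out. Kallisto-format TPM of detected members was 1.37 times the RSEM-format value at the median (1.22 to 1.56), against 1.45 over detected protein-coding genes. Genes with under 10 counts in both libraries, 11 of the 41, have no usable ratio at this depth.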
